A study of Mus musculus with 6 samples.

Results

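The TRIM (tripartite motif) family was examined in bone marrow-derived mesenchymal stem cells (MSCs, adherent stromal cells of the marrow) from wild-type C57BL/6J mice. Members were taken by name and not by their values. They are the protein-coding genes whose symbol is Trim followed by a number and at most 1 letter, which gave 41 of the 15634 genes listed. The Control group held 3 libraries of cells with no treatment, and the TNF group 3 libraries of cells given the inflammatory cytokine TNF-α at 10 ng/mL; the labels give a time of 24 h for both groups. Every culture was kept in α-MEM with 15% fetal bovine serum. The labels do not say whether the libraries of a group came from separate animals or cultures, so p-values measure the spread between these samples, which may be technical.

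TRIM proteins share an N-terminal block of a RING domain, 1 or more B-box zinc fingers and a coiled coil. The RING recruits an E2 enzyme that passes ubiquitin to a target, so most members act as E3 ubiquitin ligases. The C-terminal part differs between members and binds the target. The largest class ends in a PRY-SPRY domain and holds many members that act in antiviral defence, several of them induced by interferon. Other classes end in a PHD finger and bromodomain (chromatin regulators such as Trim28), NHL repeats or a COS box that binds microtubules. The name does not guarantee a ligase, since Trim14, Trim16 and Trim44 lack the RING.

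All 41 listed members passed the count filter and were tested. Every listed gene has 10 or more counts in 3 or more libraries, and other Trim genes were not analysed here. Library totals ran from 45629973 to 77142418 counts, of which the members took 0.137% to 0.157% in Control and 0.166% to 0.198% in TNF. TNF library 2 stood apart, with 19.4% of its counts on 18S ribosomal RNA against 1.10% to 3.55% in the other 5 libraries. The counts of called members given below, 15 higher and 3 lower, were the same without Control library 2 and TNF library 2 together. All 12 MSC markers of the marker list and all 16 macrophage markers were listed. Of the macrophage markers 2 rose and 7 fell, and their summed level was 3565 to 5023 TPM (transcripts scaled to the same total in each library, a level corrected for length) in Control and 2366 to 2917 TPM in TNF. Of the MSC markers 3 rose (Pdgfra, Cd44 and Lepr) and 3 fell (Col1a1, Col1a2 and Thy1), with sums of 6882 to 7852 TPM in Control and 4051 to 4759 TPM in TNF. The collagen genes Col1a1 and Col1a2 weigh most in these sums. Their means were 2369 and 3274 TPM in Control and 1089 and 1912 TPM in TNF, so the sums say little of the other markers. No T cell, B cell or erythroid marker of the lists was among the genes analysed here. Whether macrophages contribute to the TRIM values was not tested. In bulk RNA, more cells of a type and more RNA per cell cannot be told apart.

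After TNF treatment Trim30a, Trim12c, Trim21 and other members rose, while the fitted change of 31 of the 41 members was under 2-fold. Of the 41 members 15 rose (36.6%), 3 fell and 23 were not called by edgeR's quasi-likelihood test at a Benjamini-Hochberg adjusted p under 0.05. Of all 15547 genes tested, 16% were called higher and 16.4% lower. A fitted rise of at least 2-fold was found in 10 members, and in 5.81% of all tested genes. No member fell by 2-fold or more, against 5.22% of all tested genes. The median log2 fold change was 0.15 over the members and -0.005 over all tested genes. The 3 Control and 3 TNF values did not overlap in 25 members, 18 of them higher and 7 lower in TNF. Of all tested genes 48.7% showed no overlap, 24% being higher and 24.7% lower. Of the 15, Trim30c entered the test only through its TNF counts. The fitted changes ran from 2.73 (Trim30c) to -0.93 (Trim59) on the log2 scale.

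**Figure D1:**
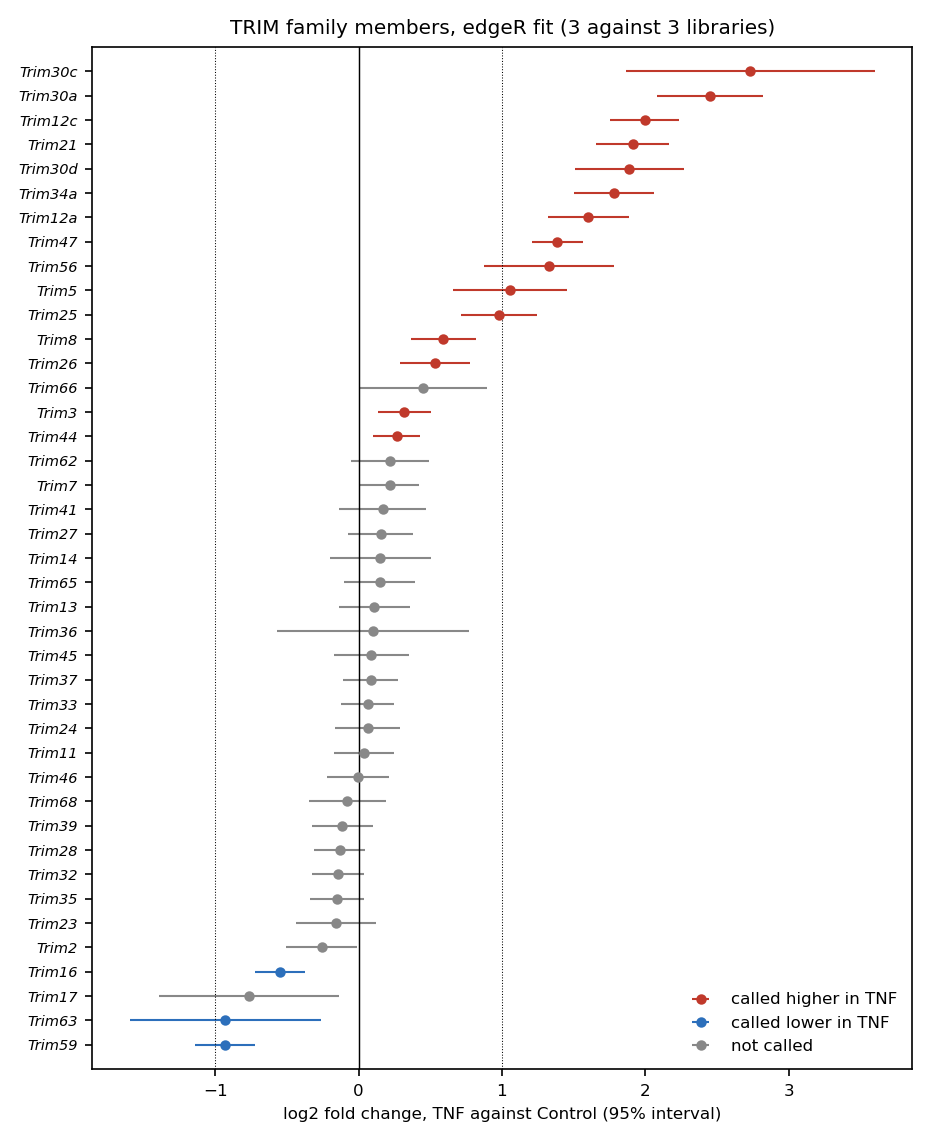
Log2 fold change of each of the 41 TRIM members, TNF against Control, from edgeR's fit of 3 against 3 libraries; points are estimates, bars 95% intervals, dotted lines a 2-fold change, and colours the call. Trim30c, listed only through its TNF counts, has the largest estimate and Trim30a the next, and the interval of Trim17 is the only one of an uncalled member that crosses a dotted line.

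Of the 21 members classed here as PRY-SPRY 11 rose and 0 fell. Trim14, Trim16 and Trim44, which lack the RING, were put in a class of their own whatever their C-terminus, and Trim16 fell. The count of 0 therefore holds for the class as drawn, and the classes were not checked against protein sequences. The other 4 raised members were Trim56 and Trim8, which carry no further conserved domain in the classification used, the NHL-repeat member Trim3, and Trim44. None of the 4 members with a PHD finger and bromodomain was called, nor was any of Trim23, Trim37 and Trim45, which have other C-termini. By edgeR at an unadjusted p under 0.05 the counts of these groups were 1 of 4 (Trim66) and 0 of 3. At that threshold there were 22 of the 41 members and 6766 of all 15547 tested genes, and groups of 4 and 3 are small. The difference between classes was not tested.

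Of the raised members 7 lie close together on chromosome 7. In the order of RefSeq genes on build GRCm38.p6 they are Trim34a, Trim5, Trim12a, Trim12c, Trim30c, Trim30a and Trim30d, and the run spans 10 protein-coding genes. The other protein-coding genes of the span are not members and were not examined. No uncalled member lies between the 7, which were picked as raised. Their fitted changes were 1.06 to 2.73 on the log2 scale. The top of this range is Trim30c, which entered the test only through its TNF counts, and the next is Trim30a at 2.45. Their proteins are the mouse relatives of primate TRIM5α and TRIM34, of which TRIM5α restricts retroviruses by binding their capsid. The genes of this run arose by duplication and resemble one another. With GENCODE M21 transcripts, 38.7% of the 31-base words of Trim12c also occur in Trim5, 48.7% of those of Trim34a in its copy Trim34b, and 8.53% of those of Trim30a in Trim30d. Of the words of Trim5, 52.9% occur in other genes and 37.9% in Trim12c. The division of reads among these genes is therefore uncertain.

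Promoters of the raised members were compared for letters bound by factors of the interferon and NF-κB pathways. RefSeq windows (build GRCm38.p6) from 250 bases before to 50 bases after a gene's start were matched for 31 of the 41 members. The interferon-stimulated response element was searched as GAAA, any 2 bases and GAAA again, on both strands. It occurred in 8 of the 13 raised members with a window, in 1 of the 16 uncalled ones (Trim2) and in 0 of the 2 that fell. By window this was 9 of 14 (64.3%) for raised members and 1 of 27 (3.70%) for uncalled ones, against 3.44% of all 32851 windows of the table and 3.20% of those of genes tested here. The other genes called higher in TNF were not counted as a set. Whether the share is particular to raised TRIM members was therefore not tested. The matches of the raised members are shown because they carry this difference. Capitals mark the matched letters, lower case the 12 bases on either side, and each line reads 5′ to 3′ along the gene's own strand.
Trim12a chr7:104315464-104315497 (- strand): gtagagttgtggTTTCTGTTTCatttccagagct
Trim12c chr7:104353357-104353390 (- strand): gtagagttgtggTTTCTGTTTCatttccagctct
Trim21 chr7:102565442-102565481 (- strand): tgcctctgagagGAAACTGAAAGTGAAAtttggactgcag
Trim26 chr17:36836974-36837013 (+ strand): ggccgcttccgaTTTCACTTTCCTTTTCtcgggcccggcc
Trim30a (downstream start) chr7:104446102-104446135 (- strand): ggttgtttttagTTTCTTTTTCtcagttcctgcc
Trim30a chr7:104465208-104465241 (- strand): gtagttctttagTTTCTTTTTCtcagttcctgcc
Trim30d chr7:104507869-104507902 (- strand): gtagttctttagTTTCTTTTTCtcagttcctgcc
Trim34a chr7:104244455-104244488 (+ strand): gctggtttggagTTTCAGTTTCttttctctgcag
Trim5 chr7:104288134-104288167 (- strand): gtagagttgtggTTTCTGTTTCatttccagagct

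The lines show how few independent sequences these are. Trim12a, Trim12c and Trim5 carried the same 10 matched letters and Trim30a shared another 10 with Trim30d. Trim21, Trim26 and Trim34a each had letters of their own, and in Trim21 and Trim26 a pair of overlapping matches formed a run of 16 bases. The match of Trim21 begins 14 bases into the transcript, counting the start site as 1, and that of Trim26 160 bases before the start. Their whole windows are given because they hold these double matches, again with matched letters in capitals.
Trim21 chr7:102565433-102565732 (- strand): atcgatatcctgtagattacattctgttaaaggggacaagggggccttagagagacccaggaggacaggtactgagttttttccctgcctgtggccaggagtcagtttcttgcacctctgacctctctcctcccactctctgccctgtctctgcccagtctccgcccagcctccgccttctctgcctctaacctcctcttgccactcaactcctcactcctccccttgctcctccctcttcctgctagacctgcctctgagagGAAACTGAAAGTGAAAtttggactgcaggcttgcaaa
Trim26 chr17:36836896-36837195 (+ strand): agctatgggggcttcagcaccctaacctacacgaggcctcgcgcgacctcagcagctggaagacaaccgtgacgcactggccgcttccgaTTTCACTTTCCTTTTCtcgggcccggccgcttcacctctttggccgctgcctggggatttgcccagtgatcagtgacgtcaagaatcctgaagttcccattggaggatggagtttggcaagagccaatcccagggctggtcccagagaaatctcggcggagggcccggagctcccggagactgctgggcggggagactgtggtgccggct

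The one uncalled member with the element was Trim2, at 1 of its 5 windows. Raised members with a window but no match were Trim25, Trim30c, Trim44, Trim47 and Trim56. The gamma-activated site, searched on both strands as TTCNNNGAA, occurred in 1 of 14 windows of raised members (Trim30c), 2 of 27 of uncalled members (Trim45 and Trim46) and 8.30% of all windows. The 10-base κB consensus occurred in 0 of the 43 windows of members and 4.51% of all windows. A match is a description of letters, and no binding was measured here.

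**Figure D2:**
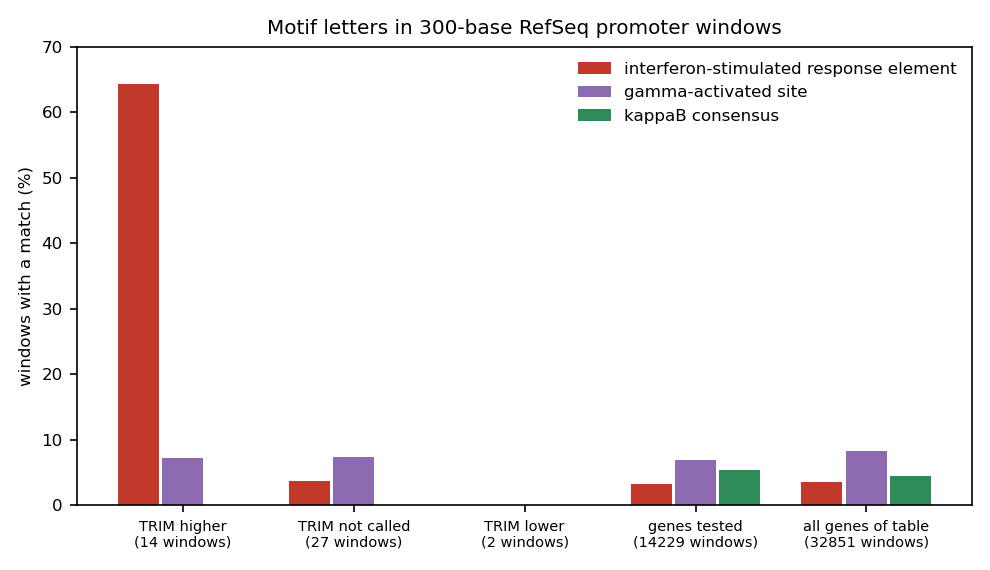
Share of 300-base RefSeq promoter windows that hold each motif, for TRIM members by call, for genes tested here and for all windows of the table. The interferon-stimulated response element is found in 64.3% of the windows of raised members and in 3.44% of all windows.

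Trim30a, which in macrophages restrains Toll-like receptor signalling by promoting loss of the adaptors TAB2 and TAB3, had the largest rise among the members with at least 10 counts in every library. Its CPM (counts scaled to the normalised library size) in libraries 1, 2 and 3, the order kept throughout, was 9.86, 13.3 and 9.77 for Control and 68.9, 62.1 and 50.01 for TNF. Every TNF library was more than 3 times as high as any Control library, and Control library 2 was the highest of its group. The log2 fold change was 2.45 ± 0.16 (SE, adjusted p = 9.18e-06).

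Trim30d, its neighbour, had 4.40, 5.76 and 3.83 CPM in Control and 17.7, 19.5 and 14.8 CPM in TNF. Again the groups were well apart and Control library 2 was the highest Control value. The change was 1.89 ± 0.17 on the log2 scale (adjusted p = 5.15e-05). Trim30c had the fewest reads of all members, with 6, 8 and 3 counts in the Control libraries and 32, 28 and 26 in the TNF libraries. It reached 10 counts in the TNF libraries alone, so it was listed and tested through the group in which it was high. Its fitted change of 2.73 ± 0.38 (adjusted p = 0.000723) and its place at the top are therefore a description. Every other member had at least 10 counts in all 6 libraries. The groups did not overlap, and the 95% interval of its change was wide, from 1.86 to 3.60.

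Trim12c was the most abundant of the run in counts, with 27.2, 23.5 and 24.6 CPM in Control and 110.9, 99.0 and 89.9 CPM in TNF. The TNF values were spread over a narrow range far above Control. Its change was 1.99 ± 0.11 on the log2 scale (adjusted p = 2.63e-06). Trim12a had 11.4, 9.55 and 12.6 CPM in Control and 36.6, 34.7 and 30.7 CPM in TNF, a change of 1.60 ± 0.12 (adjusted p = 2.35e-05). The groups of Trim12a did not overlap either. Per length, Trim12a (48.6 ± 8.18 TPM in TNF) and Trim12c (47.1 ± 6.59 TPM, SD, n = 3) lay within each other's spread.

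Trim34a had 6.72, 7.54 and 7.94 CPM in Control and 27.5, 27.4 and 21.7 CPM in TNF. The groups did not overlap, and TNF library 3 was the lowest of its group. The change was 1.78 ± 0.12 on the log2 scale (adjusted p = 1.19e-05). Trim5 was the least changed gene of the run, with 1.68, 1.30 and 1.62 CPM in Control and 3.26, 3.60 and 2.70 CPM in TNF (1.06 ± 0.17, adjusted p = 0.00191). Its level stayed near 1 TPM, from 0.745 ± 0.150 in Control to 1.46 ± 0.150 TPM in TNF. Reads of Trim5 are uncertain, because it shares many words with Trim12c, which had far more counts. The part of Trim12c reads in its values was not tested.

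**Figure D3:**
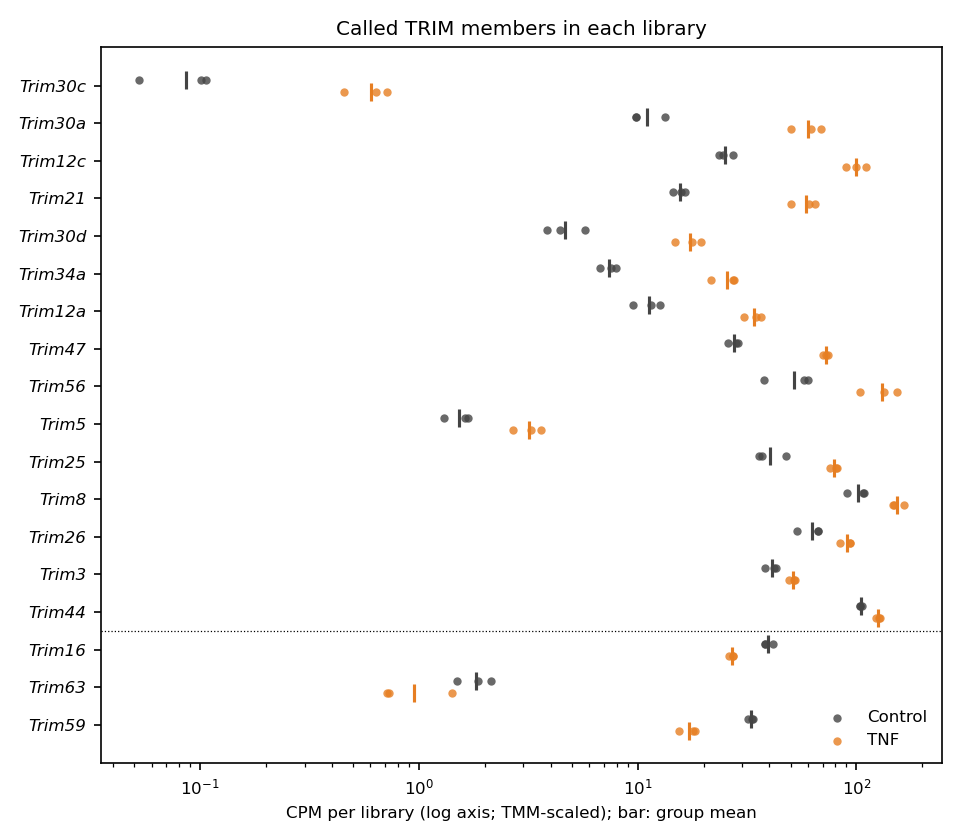
CPM of each called TRIM member in every library, on a log axis; grey points are Control, orange points TNF, and bars the group means; members above the dotted line rose and the 3 below it fell. In none of the 18 do the groups overlap. These members were chosen by their calls in the same libraries, so this only describes them. Of all tested genes 48.7% showed no overlap.

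Trim21, the cytosolic antibody receptor that sends antibody-coated virus to the proteasome, lies apart from this run on the same chromosome. It had 16.4, 14.4 and 15.8 CPM in Control and 60.6, 64.7 and 50.3 CPM in TNF. The Control values were close together and all TNF values were at least 3 times the highest of them. The log2 fold change was 1.91 ± 0.11 (adjusted p = 4.50e-06). Trim68, also a PRY-SPRY member and 8 protein-coding genes from Trim21 in RefSeq order, was not called (4.70 ± 0.243 and 4.46 ± 0.434 CPM).

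Trim25, which attaches ubiquitin chains in the pathway of the RNA sensor RIG-I, had 36.0, 47.5 and 37.0 CPM in Control and 75.5, 80.7 and 81.3 CPM in TNF. Control library 2 was the highest Control value, still well under every TNF value. The change was 0.98 ± 0.12 on the log2 scale (adjusted p = 0.000290). Trim56, a ligase of antiviral signalling that has no PRY-SPRY domain, had 60.2, 37.7 and 57.6 CPM in Control and 133, 154 and 104 CPM in TNF. After Trim30c it varied most among the members that rose 2-fold or more, with Control library 2 low and TNF library 2 high. The change was 1.33 ± 0.20 (adjusted p = 0.00107).

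Trim47 had the smallest coefficients of variation of the 10 members that rose 2-fold or more. It had 28.2, 25.9 and 28.8 CPM in Control and 73.9, 70.2 and 72.8 CPM in TNF. The change was 1.39 ± 0.08 on the log2 scale (adjusted p = 3.56e-06). Trim65, whose gene is next to Trim47 in RefSeq order, had 4.95 ± 0.430 and 5.49 ± 0.157 CPM and was not called (95% interval -0.10 to 0.40). Trim65 is a ligase of the RNA sensor MDA5.

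Smaller rises came from Trim8, Trim26, Trim3 and Trim44, all of them already abundant in Control. Trim8, reported to promote NF-κB activation by TNF, had 106.9, 90.2 and 108 CPM in Control and 165, 148 and 148 CPM in TNF (0.59 ± 0.10, adjusted p = 0.00211). Its groups did not overlap and Control library 2 was again the lowest. Trim26, a PRY-SPRY member encoded in the major histocompatibility complex, went from 62.3 ± 7.69 to 90.2 ± 5.61 CPM (0.53 ± 0.11, adjusted p = 0.00532). It missed the threshold with limma on log2 TPM (adjusted p = 0.069 with a pseudocount of 1). Trim39, encoded in the same region, was not called (11.6 ± 0.851 and 10.7 ± 0.509 CPM).

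Trim3, a member with NHL repeats, rose from 40.9 ± 2.52 to 51.1 ± 1.85 CPM (0.32 ± 0.08, adjusted p = 0.0150). The call was lost without TNF library 1 (adjusted p = 0.075) and with scaling by library totals (0.245). Trim44, which carries a ubiquitin-binding zinc finger in place of the RING, went from 105 ± 1.33 to 126 ± 2.49 CPM (0.27 ± 0.07, adjusted p = 0.0228). It was not called without Control library 1, Control library 3, TNF library 1 or TNF library 3 (adjusted p 0.062 to 0.095), with scaling by library totals (0.390) or with limma on log2(TPM + 1) or log2(TPM + 0.1) (0.292 and 0.295). Trim3 was not called on these TPM scales either (0.188 and 0.189). The other 13 raised members were called in every repeat that left out 1 library.

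Only 3 members fell. Trim59, which is anchored in membranes by a C-terminal transmembrane segment, had 33.2, 33.7 and 31.9 CPM in Control and 15.5, 17.8 and 18.4 CPM in TNF. The 3 TNF values were all well below the lowest Control value. The log2 fold change was -0.93 ± 0.09 (adjusted p = 9.14e-05). Trim16, a member without RING that takes part in clearing damaged lysosomes by autophagy, had 38.3, 41.7 and 38.2 CPM in Control and 27.2, 26.2 and 27.4 CPM in TNF. Its groups were tight and apart, with a change of -0.55 ± 0.08 (adjusted p = 0.000742).

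Trim63 encodes MuRF1, a ligase of muscle wasting that acts on contractile proteins, and was near the lower end of detection. It had 1.86, 1.495 and 2.13 CPM in Control and 1.41, 0.715 and 0.732 CPM in TNF. TNF library 1 came close to Control library 2 without reaching it. The change was -0.93 ± 0.29 on the log2 scale (adjusted p = 0.0400), and the call was lost without Control library 1, Control library 3, TNF library 2 or TNF library 3 (adjusted p 0.088 to 0.114). Without TNF library 1 the change was -1.33. In the same libraries Acta1, the actin of skeletal muscle, fell from 1.002 ± 0.0844 to 0.0467 ± 0.0289 CPM. Its counts were 56, 83 and 55 in the Control libraries and 4, 1 and 2 in the TNF libraries. Acta1 was thus listed and tested through the group in which it was high, and its fall is only a description. The other 5 skeletal muscle markers of the list were not among the genes analysed here. The part of muscle-like cells in the Trim63 value was not tested.

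The 23 uncalled members together held 507 ± 48.5 TPM in Control and 461 ± 36.8 TPM in TNF, against 257.7 ± 32.8 and 520.2 ± 50.5 TPM for the 15 raised members. In CPM, scaled by the normalised library size, the uncalled members held 865.5 ± 20.2 in Control and 840.9 ± 18.4 in TNF. The raised members held 506 ± 27.2 and 1002 ± 64.9 CPM. For 22 of the 23 uncalled members the whole 95% interval of the change lay within 2-fold in either direction. A larger change was thus outside the interval at this depth. The exception was Trim17, a PRY-SPRY member studied in neuronal death. It had 7.91, 12.1 and 7.12 CPM in Control and 6.55, 3.29 and 6.09 CPM in TNF. Both libraries numbered 2 were the outermost of their groups, and the groups did not overlap. Its change was -0.76 ± 0.27 (adjusted p = 0.0636), with an interval of -1.39 to -0.14, and it was called by DESeq2 (adjusted p = 0.018) and with scaling by library totals (0.022). Without both libraries numbered 2 its change was -0.24 (adjusted p = 0.158), and without Control library 2 alone -0.49. Reads of Trim17 are also uncertain, because 18.2% of its 31-base words occur in the transcript of the histone gene Hist3h2a.

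The 4 uncalled members with a PHD finger and bromodomain covered nearly the whole range of levels. Trim28 (KAP1), the corepressor that zinc finger proteins with a KRAB domain bring to transposable elements, was the most abundant member per length in both groups. It had 145, 147 and 154 CPM in Control and 139.6, 131 and 136 CPM in TNF. The TNF values were all slightly lower, and the change of -0.13 ± 0.08 was not called (adjusted p = 0.225, interval -0.31 to 0.05). Trim24, a coregulator of nuclear receptors, had 104, 86.3 and 105 CPM in Control and 105.5, 106 and 96.1 CPM in TNF. These groups overlapped (0.06 ± 0.10, interval -0.16 to 0.29). Trim33, which acts with Smad proteins in TGF-β signalling, had 35.5 ± 1.12 and 37.1 ± 2.54 CPM (interval -0.12 to 0.25). On log2(TPM + 1) and with scaling by library totals the estimate for Trim33 was below 0 (-0.31 and -0.03), also without a call. Trim66 lay near 1 CPM, at 0.804 ± 0.0463 and 1.10 ± 0.0473, with groups that did not overlap and an adjusted p of 0.108.

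Of the members classed as PRY-SPRY 10 were not called. Trim35 was the second most abundant member and had 221, 226 and 216 CPM in Control and 202, 207 and 188 CPM in TNF. All TNF values were a little lower, and the change of -0.15 ± 0.08 was not called (adjusted p = 0.196, interval -0.34 to 0.04). Trim41 had 53.6, 41.1 and 57.3 CPM in Control and 61.6, 58.5 and 50.7 CPM in TNF, with overlapping groups (interval -0.14 to 0.47). Trim27 had 54.0, 45.4 and 57.1 CPM in Control and 60.2, 57.5 and 56.5 CPM in TNF. Its groups overlapped too, and Control library 2 was the lowest value of both genes (interval for Trim27 -0.07 to 0.38). Trim11 had 28.8, 24.5 and 26.8 CPM in Control and 26.3, 29.3 and 26.6 CPM in TNF (interval -0.17 to 0.25). Trim7 (interval 0.01 to 0.42, adjusted p = 0.0995), Trim62 (interval -0.05 to 0.49, adjusted p = 0.188), Trim68, Trim39 and Trim65 made up the rest of this class with Trim17.

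Trim37, a regulator of centrosomes, had 41.4, 38.8 and 37.6 CPM in Control and 39.0, 41.2 and 44.9 CPM in TNF. Trim13, a ligase of the endoplasmic reticulum membrane, had 11.2, 11.4 and 12.1 CPM in Control and 14.1, 12.4 and 11.0 CPM in TNF. Neither gene showed a separation of the groups, with intervals of -0.11 to 0.28 and -0.14 to 0.36. Trim13 shares 28.7% of its 31-base words with the predicted gene Gm9359. Of the members with NHL repeats, Trim32 had 27.8 ± 1.03 and 25.2 ± 1.12 CPM (interval -0.32 to 0.04). Trim2, a ligase of neurons, had 51.9 ± 5.62 and 43.4 ± 4.12 CPM (interval -0.50 to -0.01, adjusted p = 0.0994), and was called without Control library 3 (adjusted p = 0.046).

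The microtubule-binding members Trim36 and Trim46 were not called. Trim46, which organises the start of the axon in neurons, had 8.82 ± 0.688 and 8.80 ± 0.219 CPM. Trim36 had 0.764 ± 0.267 and 0.820 ± 0.0853 CPM, and its interval was the widest of the 22 bounded members (-0.57 to 0.77). Trim23, which carries an ARF GTPase domain, had 20.7 ± 3.41 and 18.6 ± 0.887 CPM, and Trim45, with a filamin domain, 10.8 ± 1.46 and 11.5 ± 0.525 CPM. Trim14, a RING-less adaptor of antiviral signalling at mitochondria, had 3.60 ± 0.555 and 4.01 ± 0.446 CPM (interval -0.20 to 0.50).

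**Figure D4:**
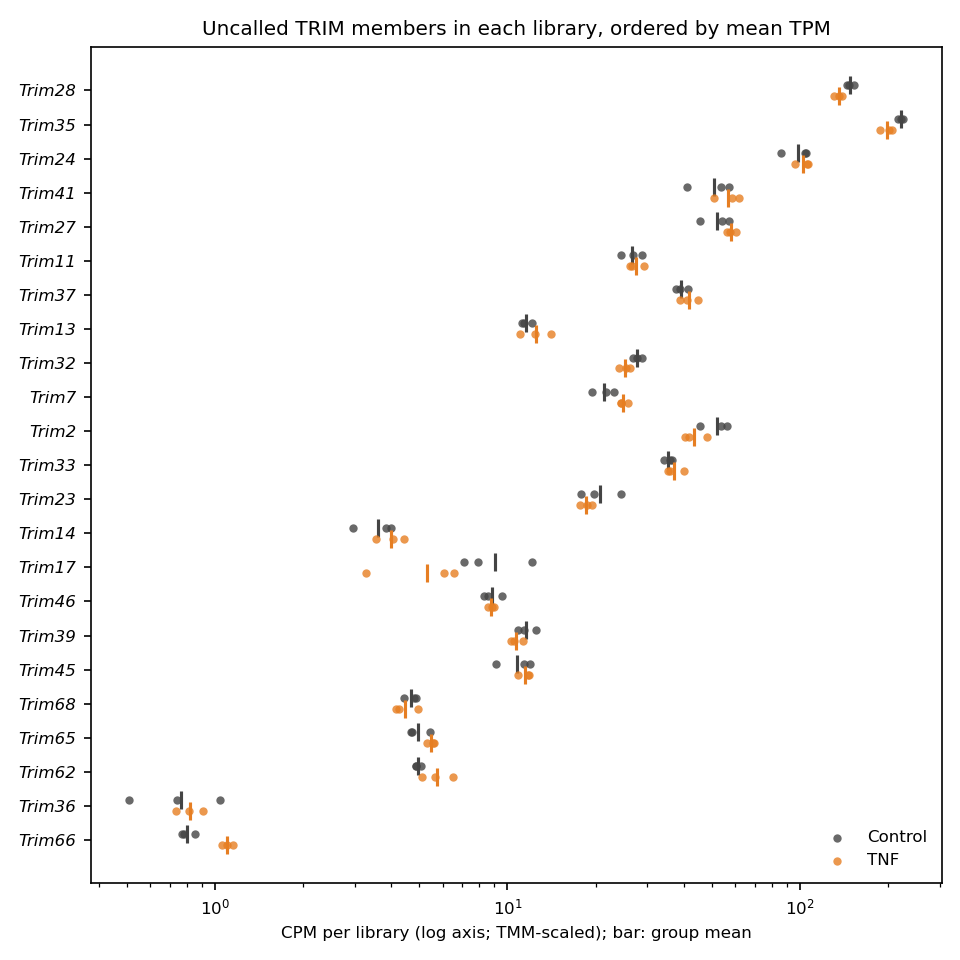
CPM of the 23 uncalled TRIM members in every library, on a log axis, ordered by mean TPM over the 6 libraries; grey is Control, orange TNF, and bars are group means. Groups overlap in 16 of the 23, and Trim17 has the widest gap between group means.

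In TPM, which allows genes to be compared, the order of the family shifted through its raised members. Trim28 (136 ± 14.7 TPM in Control, 114 ± 13.5 in TNF) and Trim35 (108 ± 7.51 and 93.4 ± 6.42 TPM) ranked first and second in both groups, and Trim8 came next (50.6 ± 8.36 and 72.3 ± 9.45 TPM). The library values of Trim28 and Trim35 did not overlap in Control and overlapped in TNF. Trim24 and Trim26 followed in Control at 46.3 ± 7.99 and 39.0 ± 8.22 TPM and lay within each other's spread, as did Trim24 and Trim8. In TNF, Trim47 took the fourth place with 59.5 ± 5.62 TPM, after 24.0 ± 2.81 TPM and ninth place in Control. Trim12a moved from 19th to 6th place and Trim12c from 21st to 7th. Trim59 moved the other way, from 11th place at 22.1 ± 1.27 TPM to 26th at 11.1 ± 0.764 TPM. At the low end, Trim30c, Trim66 and Trim36 were under 1 TPM in both groups.

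**Figure D5:**
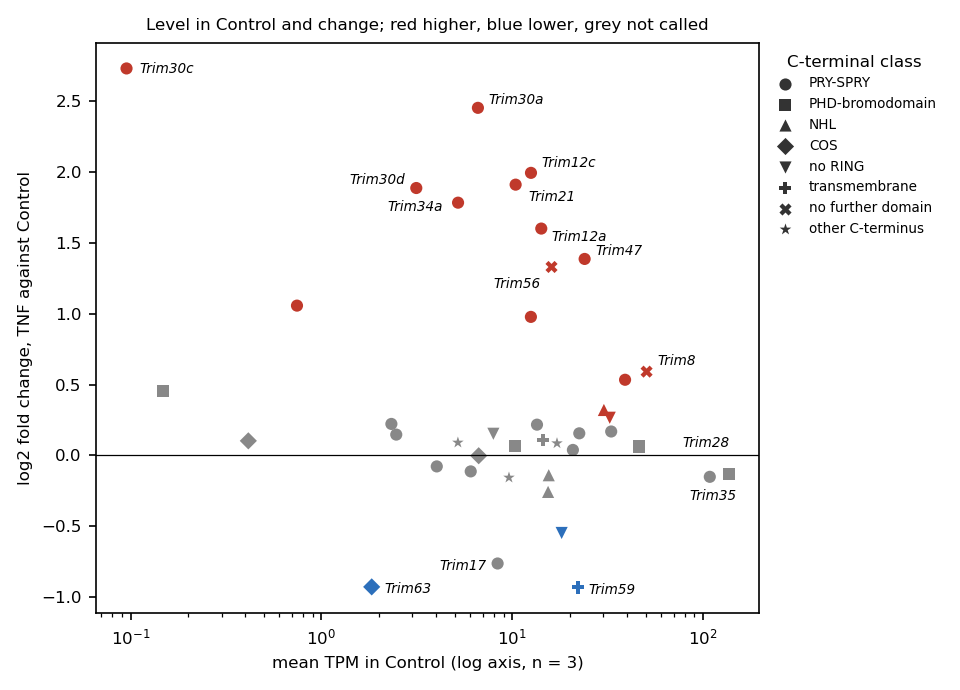
Mean TPM in Control (log axis, n = 3) against the log2 fold change of each TRIM member. The symbol gives the class, by C-terminus or lack of the RING, and the colour the call. The 10 members that rose 2-fold or more start between 0.0952 and 24.0 TPM, while Trim28 and Trim35, the most abundant, lie near 0.

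Summed over genes, the 15 raised members went from 220.0 to 279.6 TPM in the Control libraries to 484 to 578 TPM in the TNF libraries, a ratio of means of 2.02. These genes were chosen for their rise, so the ratio only describes its size. By library, the 23 uncalled members ranged from 451 to 538 TPM in Control and from 421 to 493 TPM in TNF, and these ranges overlapped. All 41 members summed to 711 to 855 TPM in Control and 926 to 1097 TPM in TNF. In CPM, spread between replicates was small for most members, with a median coefficient of variation of 8.54% in Control and 6.83% in TNF. No such median was taken in TPM. Control library 2 held the lowest Control CPM of 22 of the 41 members, and TNF library 3 the lowest TNF CPM of 12 of the 15 raised members.

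Related genes outside the name rule were read from lists of partners. Of 3 measured TRIM proteins under other symbols, Pml, the organiser of nuclear bodies, rose from 116 ± 4.62 to 172 ± 9.37 CPM (0.57 ± 0.08, adjusted p = 0.000972). The microtubule-binding pair went opposite ways, Mid1 up by 0.41 ± 0.09 and Mid2 down with a change of -0.60 ± 0.10 on the log2 scale (adjusted p = 0.00878 and 0.00199). Genes through which interferons signal were higher in 8 of 10 and lower in 0, with a list median of 1.11. Of all tested genes 16% were higher and 16.4% lower, with a median of -0.005. Irf1, a transcription factor of interferon responses, rose from 76.7 ± 8.29 to 414 ± 53.3 CPM, Stat2 from 44.7 ± 3.59 to 159 ± 14.2, and the receptor gene Ifnar2 from 66.7 ± 2.83 to 146 ± 7.67 CPM. Ifnb1 was not among the genes analysed here.

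Sensors and adaptors that TRIM proteins act on were higher in 8 of 17 and lower in 0 (list median 0.47), where 16% of all tested genes were higher and 16.4% lower. Ddx58, which encodes RIG-I, rose from 46.2 ± 3.50 to 187.5 ± 15.3 CPM, and Ifih1, which encodes MDA5, from 21.3 ± 1.36 to 88.5 ± 8.70 CPM. Irf7 rose from 11.8 ± 1.41 to 103.9 ± 26.8 CPM and Nod2, a sensor of bacterial cell walls, from 0.386 ± 0.0614 to 1.75 ± 0.264 CPM. Mavs, the adaptor of both RNA sensors, passed no threshold at 47.9 ± 0.952 CPM in Control against 45.2 ± 0.832 CPM in TNF (adjusted p = 0.388). Tab2 and Tab3, the targets of Trim30a, were not called (165 ± 6.71 and 158 ± 10.9 CPM for Tab2, 14.0 ± 1.20 and 15.3 ± 1.13 CPM for Tab3). These 3 genes (Mavs, Tab2 and Tab3) fall outside the rule for named genes and were picked with their values known.

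Of 21 ubiquitin, E1 and E2 genes 3 rose and 2 fell (list median 0.02), a share of calls no higher than the 32.4% of all tested genes called in either direction. Those that rose were Uba7 (1.63 ± 0.08 on the log2 scale) and Ube2l6 (1.82 ± 0.16), which are the E1 and E2 of the ubiquitin-like protein ISG15, and Ube2e2 (0.53 ± 0.11). Ube2e3 (-0.49 ± 0.07) and Ube2n (-0.32 ± 0.07), the E2 of lysine-63 chains, fell. Of 11 silencing partners of Trim28 2 were higher and 3 lower (list median -0.09), which is near the share of all tested genes (16% higher and 16.4% lower). The chromatin remodeller Chd3 fell from 261 ± 20.4 to 152 ± 11.4 CPM and the heterochromatin protein gene Cbx5 from 101 ± 12.3 to 68.4 ± 6.79 CPM, while the histone methyltransferase gene Setdb1 rose from 39.9 ± 2.63 to 55.7 ± 4.53 CPM and Morc3 from 29.4 ± 1.61 to 35.8 ± 1.41 CPM. Ligases of immune signalling outside the family were higher in 13 of 20 and lower in 2 (list median 0.67), against the same 16% and 16.4% of all tested genes. Among them Birc3, which encodes the inhibitor of apoptosis cIAP2, rose from 21.5 ± 2.41 to 136 ± 8.96 CPM and Herc6, the main ISG15 ligase of mice, from 14.7 ± 1.38 to 115 ± 17.7 CPM.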

How the data were processed

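RNA of 6 libraries, 3 Control and 3 TNF, was sequenced with a stranded kit, per the labels' protocols. The submitters' processing notes name Trim Galore, STAR, StringTie and Salmon and build GRCm39, with no versions or roles. Whether reads shared between genes were split is not given in the sources used here. The authors deposited whole-number counts per gene without gene names, under a title line that says normalized and a column name that says raw; library totals differed, and the values were used as counts. The authors also deposited TPM with gene names, which sum to the same total in each library. Count lines were joined to TPM lines by position. All 260 zero counts stood on a line whose TPM was also 0, and the median SD of log2(count/TPM) centred per library was 0.0275, against 0.413 with lines moved by 1.

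All 15634 genes were put through filterByExpr of edgeR 4.0.16 (R 4.3.3), which kept 15547. Counts were fitted with TMM factors, glmQLFit and glmQLFTest with group as the only term, two-sided, and p-values were adjusted over all tested genes. SEs are the absolute log2 fold change divided by the square root of F, and 95% intervals use them with the t quantile of the fit; both are approximate. SDs are over 3 libraries. The procedure was tested on simulated data. Alternatives used DESeq2 1.42.0 and limma 3.58.1, other scalings and filters, log2 TPM with a pseudocount of 1 or 0.1, the replicate number as a block and fewer libraries.

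The members, classes, gene lists and tests were chosen with earlier results of these data known. Values in every library are given for called members with a change of at least 1.5-fold and for the 8 uncalled members with the highest mean TPM; other members have a group mean or an interval, and from each partner list up to 4 called genes with the smallest adjusted p are named. Library values of Trim16 and Trim17, the genes Ube2n and Acta1, and the named MSC markers were added after their values were seen. Promoter windows come from RefSeq (GRCm38.p6) and transcripts from GENCODE M21, which are not of the authors' build, so no coordinates from the files are used.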

Additional observations from a re-analysis of the deposited data

How the results depend on the processing

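The 15 raised members numbered 12 to 15 under other scalings, tools and filters, 13 at an adjusted p under 0.01, and 13 to 15 when 1 library was left out. The 3 lower members numbered 2 to 4 under these settings and 0 with a fitted change of at least 2-fold, a rule that leaves 10 raised members. Of the 18 called members, 18 kept their sign in every refit and 14 were called in every refit that tested them. Of the 23 uncalled members, 21 were never called; Trim2 and Trim17 were the exceptions. Over all genes, 2489 higher calls became 1612 with library totals, 1479 and 1475 with limma on TPM plus 1 and plus 0.1 (log2), 1587 at an adjusted p under 0.01 and 903 with the 2-fold rule. The 2550 lower calls became 1534 and 812 with the last 2 rules. With library totals 38.5% of all calls were higher, against 49.4% with TMM factors. Leaving out 1 library gave 1721 to 2413 higher and 1728 to 2382 lower genes. With the replicate number as a block, 14 members were higher and 2 lower, Trim44 and Trim63 being lost. Deviations of same-numbered libraries correlated at -0.01, -0.30 and -0.22, which gives no sign that the numbers pair the samples. With 3 libraries a group these correlations cannot exclude a pairing. Trim30c was not tested with a filter at 1 CPM, and its change was 0.57 on log2(TPM + 1). Trim genes with fewer counts than the listed ones were not analysed here.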
